A study of Oryctolagus cuniculus with 6 samples.

Results

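Integrin and laminin genes were followed in the tracheal mucosa of rabbits whose tracheal tube cuff had been held at a high pressure, and of control rabbits. The members are all rows of the deposited gene table whose symbol names an integrin alpha chain, an integrin beta chain or a laminin alpha, beta or gamma chain. There were 32 such rows among 29587 genes, 24 for integrins and 8 for laminins. The symbols ITGA9, ITGB3, LAMA5, LAMB4 and LAMC3 of the same families were not analysed here under those names.

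All animals were New Zealand rabbits aged 3 months. In the high cuff pressure group, a tube of 3.0 mm was placed 13 cm deep and its cuff kept at 35 cmH2O for 2 h, and 3 libraries were made. The control group also had 3 libraries, and the labels give neither how the controls were handled nor how long after the procedure the tissue was taken. Poly(A) RNA of the mucosa was sequenced, with total counts of 10501734 to 14415754 per library. The labels do not tie each library to its own animal, so p-values here measure only the spread between these samples.

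Integrins are receptors made of 1 alpha and 1 beta chain that anchor a cell to matrix or to another cell, and the pair decides the ligand. Laminins are trimers of an alpha, a beta and a gamma chain that form the sheet of the basement membrane under epithelium and around muscle, vessels and nerves. In airway epithelium, basal cells hold on to laminin-332 through the hemidesmosomal integrin of the ITGA6 and ITGB4 chains, and leukocytes use the ITGB2 integrins to leave vessels and to move through tissue. A transcript level says nothing of how much of a chain is paired or at the surface.

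The labels call the cells epithelial, while the protocol names the mucosa, which also holds other tissue. Summed smooth muscle markers (5 genes with a row) stood at 4835 to 8015 CPM in the controls (CPM are read counts scaled to a fixed library size with TMM, the trimmed mean of M values), and 3 genes of epithelium in general at 850 to 946 CPM. In the high cuff pressure group the smooth muscle sum was 417, 3553 and 6245 CPM in replicates 1 to 3, and replicate 1 had the lowest sum of all 6 libraries. In such bulk samples fewer cells of a type and less RNA per cell cannot be told apart.

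Of the 32 genes, 31 passed the filter on low counts. ITGAD, a leukocyte alpha chain, did not, with 5, 10 and 8 counts in the high cuff pressure libraries and 2, 4 and 6 in the controls. With high cuff pressure ITGB2 and ITGA3 rose and LAMA2 fell. The threshold is a Benjamini-Hochberg adjusted p under 0.05 in edgeR's quasi-likelihood test over all 13724 genes tested. The called share was 9.68% of the members (3 of 31) and 5.28% of all genes tested. Among all genes, 3.67% were called higher and 1.62% lower, beside 2 and 1 of the 31 members. Without adjustment, 9 members had p under 0.05, which is 29.0% of the 31, beside 29.3% of all genes tested. DESeq2 called 6 members (19.4%), beside 16.8% of all genes to which it gave an adjusted p. Of those 6, 5 were higher and 1 lower, beside 9.16% and 7.63% of all genes. The members' shares were near the background under both rules. The groups of libraries did not overlap in CPM for 9 of the 31 members (29.0%) and for 37.3% of all genes tested, so the members' share was below the background. The median log2 fold change was 0.16 over the members and -0.01 over all genes tested. Scaling by total counts only moved the median of all genes by -0.40 on the log2 scale. The share of calls that were higher was 69.4% of 725 calls with TMM and 23.9% of 1630 calls with total counts.

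**Figure D1:**
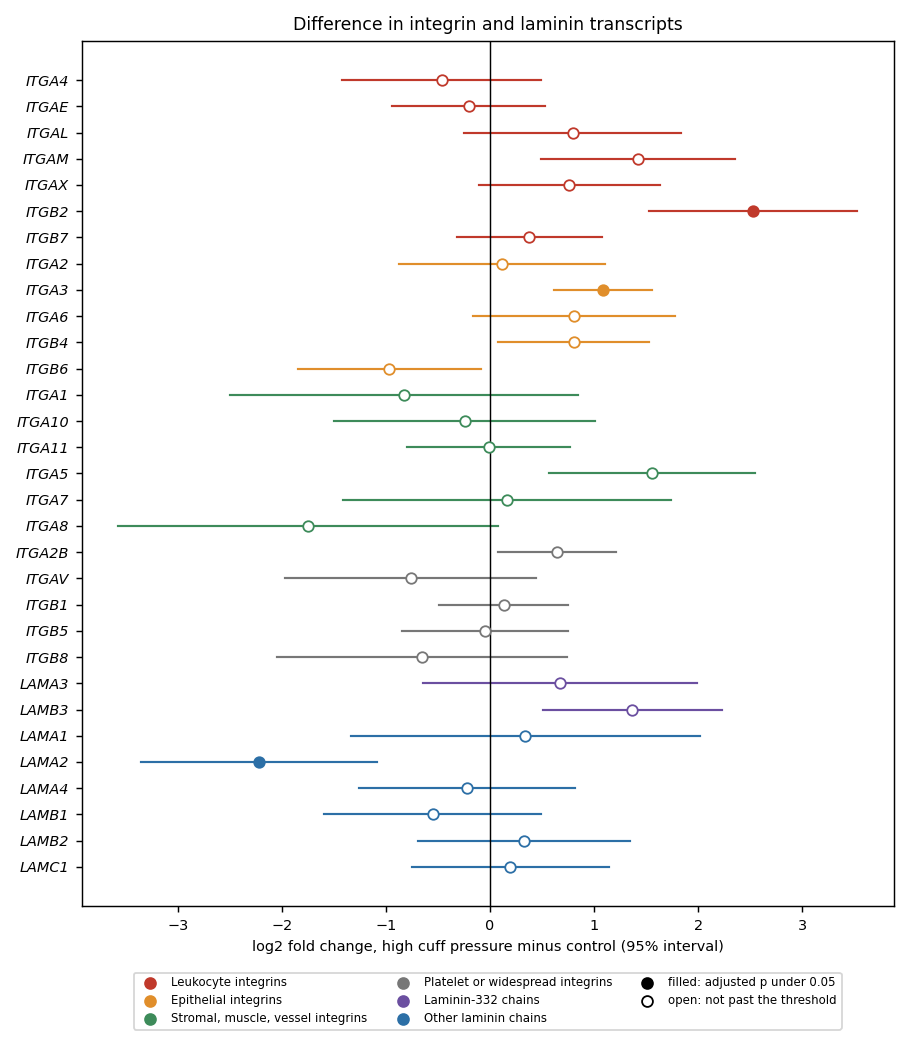
Log2 fold change (x axis, high cuff pressure minus control) of the 31 tested genes (y axis), with bars for the 95% interval, coloured by group of members. Filled points mark ITGB2 at 2.53, ITGA3 at 1.09 and LAMA2 at -2.22, which passed the threshold, and open points the 28 that did not.

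The leukocyte integrins were led by ITGB2 (gene ENSOCUG00000011544, scaffold GL019419, 2771 to 21890), the common beta chain of the leukocyte integrins. It stood at 184.0, 92.5 and 57.05 CPM in high cuff pressure replicates 1 to 3 and at 23.6, 17.4 and 17.0 CPM in control replicates 1 to 3. Every high cuff pressure library lay above every control, and the libraries with high cuff pressure differed more among themselves than the controls did. The means were 111 ± 65.5 and 19.3 ± 3.71 CPM (SD, n = 3 each), a 5.76-fold difference. The log2 fold change was 2.53 ± 0.43 (SE), with a 95% interval of 1.52 to 3.53 and an adjusted p of 0.0294 in edgeR's test. Leaving out any 1 of the 3 controls or high cuff pressure replicate 2 ended the call, with log2 fold changes of 2.44 to 2.71 and edgeR adjusted p of 0.0681 to 0.129. Without high cuff pressure replicate 1 it stayed called, at 1.96 on the log2 scale and an adjusted p of 0.0127. Over the 15 alternatives ITGB2's adjusted p ranged from 2.2e-06 to 0.129.

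The alpha chains that pair with ITGB2 did not pass the threshold. ITGAM, the alpha chain of the complement receptor of neutrophils and macrophages, stood at 8.87, 4.47 and 8.49 CPM with high cuff pressure and 2.82, 2.00 and 3.35 CPM in the controls. Its groups did not overlap, and its log2 fold change was 1.42 ± 0.40 (SE; adjusted p = 0.0737, edgeR). DESeq2 put ITGAM past the threshold, with an adjusted p of 0.0173 (0.0173 to 0.229 over 13 alternatives). ITGAL, the alpha chain of the lymphocyte function-associated antigen, stood at 13.3, 5.18 and 17.6 CPM against 8.46, 6.24 and 6.20 CPM. In ITGAL the library of high cuff pressure replicate 2 was the lowest of all 6, and the log2 fold change was 0.79 (edgeR adjusted p = 0.275). ITGAX, a chain of dendritic cells and macrophages, stood at 2.37, 3.06 and 3.71 CPM against 1.97, 1.54 and 1.90 CPM, without overlap (log2 fold change 0.76, edgeR adjusted p = 0.219). ITGAD, ITGAX and ITGAM lie side by side between 912089 and 1047032 of scaffold GL018752, and ITGAL lies on the same scaffold at 1690349 to 1758573. ITGAD, ITGAX and ITGAM are related in sequence and how reads were assigned to genes is not stated by any source used here, so reads may be split among them.

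ITGB2 and its partners can be set side by side only per length, in fragments per unit of length and of depth (FPKM). The FPKM of ITGB2 was 7.79, 6.86 and 2.00 times the summed FPKM of ITGAL, ITGAM, ITGAX and ITGAD with high cuff pressure. In the controls this ratio was 1.87, 1.86 and 1.5. Replicate 3 of the high cuff pressure group thus lay just above the controls and the other 2 far above. ITGAM made up 40.2, 35.5 and 31.8% of the summed FPKM of the alpha chains with high cuff pressure, and 24.0, 22.8 and 31.7% in the controls. The gap between the groups in ITGAM's share was therefore small, between 31.8 and 31.7%. Both differences had p = 0.10 in a two-sided exact permutation test, the smallest that 3 libraries against 3 allow, and 0.23 after adjustment over 21 chain quantities. ITGAL made up 45.6, 31.1 and 49.9% against 54.5, 54.0 and 44.4%, which overlapped.

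The chains of lymphocyte integrins showed no call. ITGA4, the alpha chain that meets VCAM1 and MADCAM1, stood at 4.14, 2.71 and 6.52 CPM with high cuff pressure and 4.53, 7.34 and 6.71 CPM in the controls, with a log2 fold change of -0.47 (edgeR adjusted p = 0.475). Its partner ITGB7 stood at 8.18, 5.88 and 6.97 CPM against 5.13, 5.02 and 6.05 CPM. ITGB7's log2 fold change was 0.38 (edgeR adjusted p = 0.430) with TMM, and -0.01 with total counts only. ITGAE, the alpha chain of lymphocytes that sit within epithelium and bind CDH1, stood at 14.2, 10.4 and 8.03 CPM against 11.9, 10.3 and 15.4 CPM (log2 fold change -0.21, edgeR adjusted p = 0.698). All 3 overlapped between the groups. Of the 7 leukocyte integrins tested, 1 rose (14.3%, beside 5.28% of all genes tested) and none fell. Their median log2 fold change was 0.76. It ranged from -0.02 to 0.87 over the alternatives that kept all libraries, some of which tested fewer of these genes.

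Markers of leukocytes differed between the groups. Summed neutrophil markers, with 9 genes that had a row, stood at 6790, 3607 and 1481 CPM with high cuff pressure and at 74.5, 6.82 and 422 CPM in the controls. The order of the high cuff pressure replicates in that sum was the same as in ITGB2, while the order of the controls was not. Control replicate 3 had the highest neutrophil sum of the controls, at 422 CPM, and the lowest ITGB2, at 17.0 CPM. Of the 6 neutrophil markers tested, 5 rose, and the granule genes MMP8 and CTSG were at 0 in all libraries. The 1 not called was S100A9 (edgeR adjusted p = 0.119), the largest part of the neutrophil sum in each library. S100A9 stood at 4294, 2272 and 846 CPM with high cuff pressure and at 63.1, 2.96 and 401 CPM in the controls. Summed macrophage markers stood at 208 to 226 CPM against 62.6 to 128 CPM, with 4 of 10 higher. Of those 10 markers, 7 had a positive log2 fold change and 3 a negative one. The 3 were C1QA, C1QB and C1QC, at -1.05, -0.93 and -0.80, and each overlapped between the groups. Summed markers of T and NK cells stood at 6.47 to 7.88 CPM against 9.27 to 13.4 CPM, with 0 of 5 past the threshold in edgeR and in DESeq2 and 2 with an unadjusted p under 0.05. The sum of B and plasma cell markers stood at 107 to 221 CPM against 476 to 1206 CPM, with 2 of 4 lower. The part of these cells in the integrin values was not tested.

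Among integrins of epithelium, ITGA3 (gene ENSOCUG00000009990, chromosome 19, 37569515 to 37598973), the alpha chain that binds laminin-332 at the base of epithelial cells, rose. It stood at 125.6, 114.3 and 157.6 CPM with high cuff pressure and at 63.4, 63.1 and 60.7 CPM in the controls. The controls lay close together, and the lowest high cuff pressure library was well above them. The means were 132 ± 22.5 and 62.4 ± 1.48 CPM (SD, n = 3 each), and the log2 fold change was 1.09 ± 0.20 (SE), with a 95% interval of 0.61 to 1.56 and an edgeR adjusted p of 0.0337. ITGA3 missed the threshold without any 1 library other than high cuff pressure replicate 1 (adjusted p 0.0550 to 0.157, log2 fold change 0.95 to 1.19) and with total counts only (0.70, adjusted p = 0.0791). On the log2(FPKM + 1) scale its difference was 0.64, with an adjusted p of 0.0870 in limma. Over the 15 alternatives tried its adjusted p ranged from 0.000234 to 0.157.

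The hemidesmosomal pair did not pass the threshold. ITGB4, whose long cytoplasmic tail meets the hemidesmosome plaque, stood at 160.9, 274 and 324 CPM with high cuff pressure and at 165, 161 and 109 CPM in the controls. High cuff pressure replicate 1 was within the control range and the other 2 were above it (log2 fold change 0.80, edgeR adjusted p = 0.141). Without that replicate ITGB4 passed, with a log2 fold change of 1.05 and an adjusted p of 0.0362 (0.0362 to 0.406 over all alternatives). ITGA6 stood at 39.9, 22.1 and 78.0 CPM against 27.5, 25.4 and 27.2 CPM. Its high cuff pressure libraries spread to both sides of the controls (log2 fold change 0.81, edgeR adjusted p = 0.238).

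ITGB6, the epithelial beta chain whose pair with ITGAV binds latent TGFB1, stood at 17.2, 8.12 and 13.6 CPM with high cuff pressure and at 15.6, 32.2 and 28.3 CPM in the controls. Its groups overlapped by 1 control, and the log2 fold change was -0.97 (edgeR adjusted p = 0.142). ITGA2, a collagen and laminin receptor chain of basal cells, stood at 11.0, 3.65 and 9.02 CPM against 6.32, 8.69 and 6.92 CPM. ITGA2's log2 fold change of 0.12 (edgeR adjusted p = 0.886) turned to -0.27 with total counts only. Of the 5 epithelial integrins, 1 rose and none fell, with a median log2 fold change of 0.80. The lowest library of the high cuff pressure group was replicate 2 for 4 of these 5 genes and replicate 1 for ITGB4. Summed basal cell markers stood at 443, 1013 and 2489 CPM with high cuff pressure and 404, 357 and 180 CPM in the controls. Of those markers 3 of 4 overlapped between the groups (TP63, DLK2 and NGFR), and KRT5 did not. The 3 markers of epithelium in general summed to 1153 to 1361 CPM against 850 to 946 CPM. Only KRT8 among them was above the controls in every high cuff pressure library, while EPCAM and CDH1 overlapped, with log2 fold changes of -0.34 and -0.11. Summed markers of ciliated epithelium were lower without overlap, at 491 to 1280 CPM against 1494 to 2263 CPM. All 5 of those markers had a negative log2 fold change, none passed in edgeR and DESeq2 called 2 lower. The part of these cells in the ITGA3 difference was not tested.

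**Figure D2:**
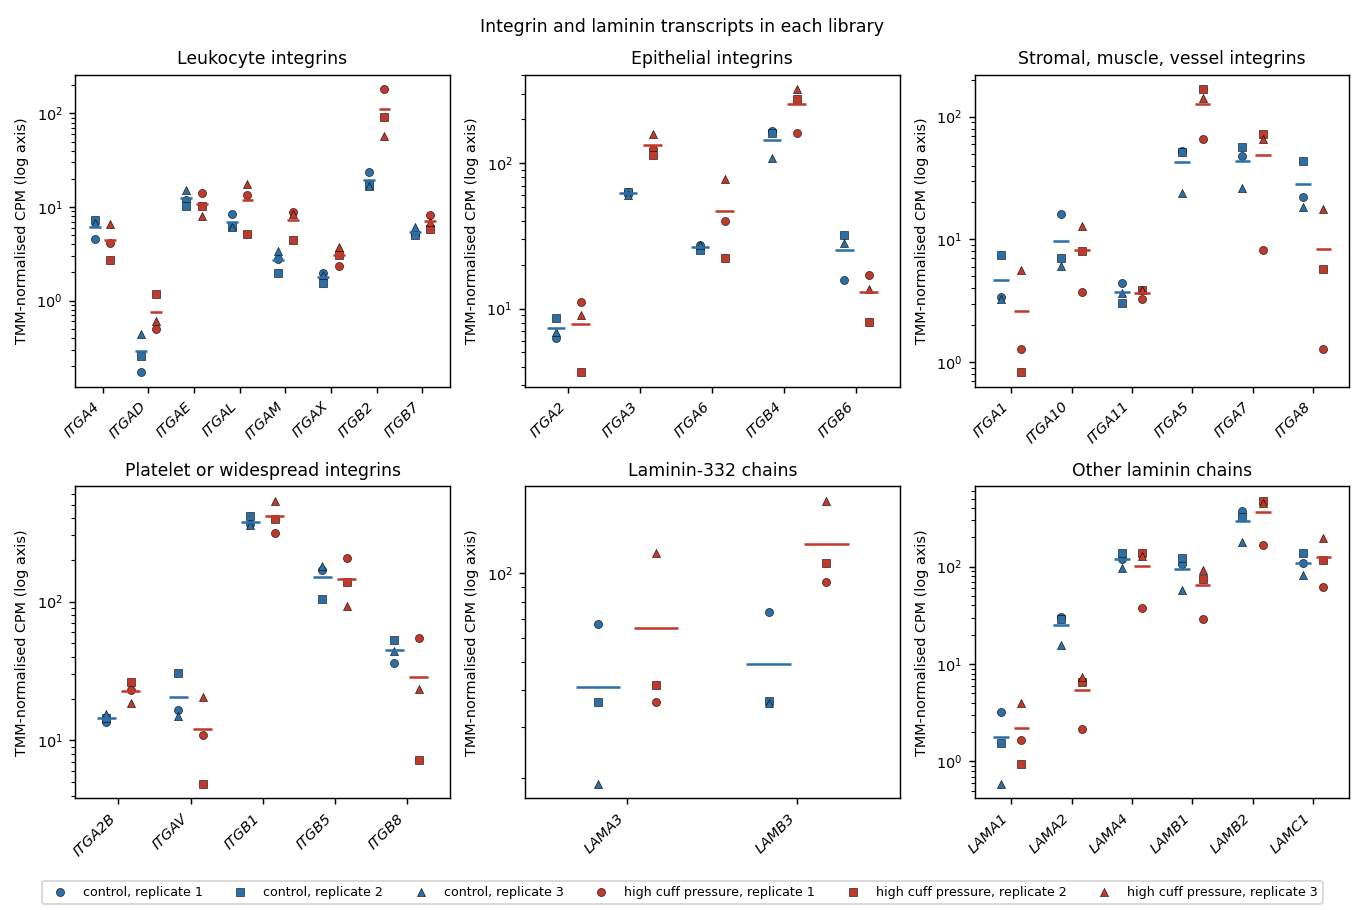
Level of each of the 32 genes in each of the 6 libraries (y axis, TMM-normalised CPM on a log axis), in panels by group of members. Symbols give the replicate number, blue marks control, red marks high cuff pressure, and lines are means of 3; all red points of ITGB2 and ITGA3 lie above the blue ones and all red points of LAMA2 below.

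The integrins of stroma, muscle and vessels held no call among 6 genes, with 1 unadjusted p under 0.05 and 1 call by DESeq2, both for ITGA5. ITGA5 (chromosome 4, 38145962 to 38168044), the alpha chain of the main fibronectin receptor, stood at 65.5, 169.0 and 143 CPM with high cuff pressure and at 52.7, 51.9 and 24.0 CPM in the controls. The groups did not overlap, and replicate 1 of the high cuff pressure group lay near the controls. Its log2 fold change was 1.55 ± 0.43 (SE), with a 95% interval of 0.56 to 2.55 and an edgeR adjusted p of 0.0699. DESeq2 gave ITGA5 an adjusted p of 0.00805, and edgeR without high cuff pressure replicate 1 a log2 fold change of 1.87 with an adjusted p of 0.0206. The range over all alternatives was 0.00805 to 0.219. On the FPKM scale ITGA5 made up 22.6, 38.9 and 24.7% of the summed level of 11 alpha chains that can pair with ITGB1, against 17.6, 15.0 and 10.8% in the controls. The shares did not overlap (exact permutation p = 0.10, adjusted 0.23).

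ITGA8, the alpha chain of smooth muscle and fibroblast-like cells that binds nephronectin, lay on the other side. It stood at 1.28, 5.77 and 17.8 CPM with high cuff pressure and at 22.2, 43.8 and 18.4 CPM in the controls. The groups did not overlap, although high cuff pressure replicate 3 was just below control replicate 3. ITGA8's log2 fold change was -1.75 ± 0.79 (SE; edgeR adjusted p = 0.185), and only limma on log2(FPKM + 1) put it past the threshold (difference -1.71, adjusted p = 0.0496) among the alternatives tried, whose adjusted p reached 0.434. Its share of the ITGB1 partner chains was 0.442, 1.33 and 3.06% against 7.39, 12.6 and 8.22% (exact permutation p = 0.10, adjusted 0.23).

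The other stromal alpha chains overlapped between the groups. ITGA7, the laminin receptor chain of muscle, stood at 8.18, 72.7 and 66.0 CPM with high cuff pressure and 47.9, 57.1 and 26.4 CPM in the controls. Replicate 1 of the high cuff pressure group was the lowest of all 6 libraries and the other 2 the highest. ITGA7's log2 fold change of 0.16 (edgeR adjusted p = 0.900) turned to -0.25 with total counts only. ITGA1, a collagen receptor chain of smooth muscle and vessels, stood at 1.28, 0.824 and 5.68 CPM against 3.42, 7.40 and 3.28 CPM (log2 fold change -0.83, edgeR adjusted p = 0.470). ITGA10, a collagen receptor chain known from cartilage, stood at 3.75, 8.002 and 12.9 CPM against 16.2, 7.08 and 6.05 CPM. Its log2 fold change of -0.25 (edgeR adjusted p = 0.796) turned to 0.11 without high cuff pressure replicate 1 and to 0.33 without control replicate 1. ITGA11, the collagen receptor chain of fibroblasts, stood at 3.25, 3.88 and 3.86 CPM against 4.44, 3.02 and 3.64 CPM, with a log2 fold change of -0.01 (95% interval -0.80 to 0.77, edgeR adjusted p = 0.986). ITGA11 had the narrowest spread of this group within high cuff pressure. The median log2 fold change of the 6 genes was -0.13. It ranged from -0.67 to 0.04 over the alternatives that kept all libraries, some of which tested fewer of these genes.

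High cuff pressure replicate 1 was the lowest of its group for 5 of the 6 stromal integrins and 5 of the 6 other laminin chains, and for 36.9% of all genes tested. In that library the smooth muscle markers summed to 417 CPM and the fibroblast markers to 267 CPM, against 3553 and 996 CPM in replicate 2 and 6245 and 1478 CPM in replicate 3. The controls held 4835 to 8015 CPM of smooth muscle and 1162 to 2067 CPM of fibroblast markers. The part of these tissues in the differences was not tested. Over all members the highest library of the high cuff pressure group was a median of 3.03 times the lowest, and of the control group 1.68 times. Over all genes tested these medians were 1.88 and 1.43.

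**Figure D3:**
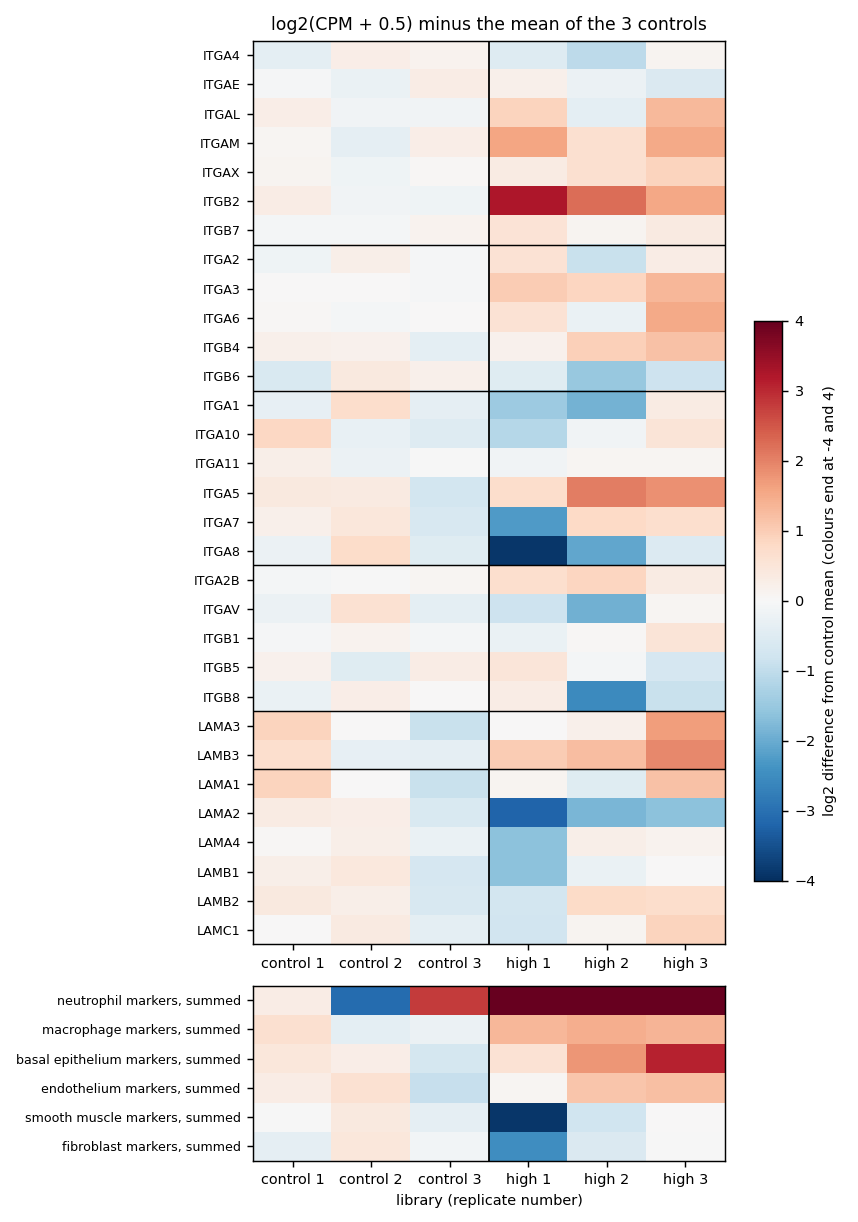
Each cell is log2(CPM + 0.5) of a tested gene in a library minus the mean of the 3 controls (red higher, blue lower); columns are libraries, and the lower panel gives summed marker genes on the same scale. The column of high cuff pressure replicate 1 is blue for ITGA7, ITGA8, LAMA2, LAMA4 and LAMB1 and for the smooth muscle and fibroblast sums.

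Integrins of platelets or of many cell types held no call among 5 genes, with 1 unadjusted p under 0.05 (ITGA2B) and none in DESeq2. ITGB1, the beta chain with the most partners, stood at 313.5, 392.2 and 535 CPM with high cuff pressure and at 363, 413 and 357 CPM in the controls. Its log2 fold change was 0.13 (95% interval -0.49 to 0.75, edgeR adjusted p = 0.778) with TMM and -0.26 with total counts only, and the groups overlapped. Per length, ITGB1 was 1.51, 1.26 and 1.28 times the summed FPKM of the 11 partner chains, against 1.68, 1.66 and 2.23 times in the controls, without overlap (exact permutation p = 0.10, adjusted 0.23). ITGB5, a partner of ITGAV, stood at 208, 139.0 and 92.5 CPM against 168, 105 and 182 CPM (log2 fold change -0.05, edgeR adjusted p = 0.940). ITGB8, the partner of ITGAV that presents latent TGFB1 and TGFB3, stood at 54.5, 7.18 and 23.6 CPM against 36.4, 53.3 and 44.5 CPM. High cuff pressure replicate 1 was the highest of all 6 libraries in ITGB8 and replicate 2 the lowest (log2 fold change -0.65, edgeR adjusted p = 0.494).

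ITGAV, the alpha chain of receptors for the RGD sequence of matrix proteins, stood at 10.9, 4.83 and 20.5 CPM with high cuff pressure and at 16.7, 30.4 and 14.9 CPM in the controls (log2 fold change -0.76, edgeR adjusted p = 0.356). Its levels overlapped, while its share of the ITGB1 partner chains did not, at 4.67, 1.37 and 4.37% against 6.85, 10.8 and 8.23% (exact permutation p = 0.10, adjusted 0.23). ITGA2B, the platelet alpha chain that binds fibrinogen with integrin beta 3, stood at 23.3, 26.5 and 18.5 CPM against 13.7, 14.5 and 15.5 CPM. All high cuff pressure libraries lay above the controls, with a log2 fold change of 0.64 (edgeR adjusted p = 0.133). Of the 3 platelet markers with a row, GP9 and GP1BA were at 0 in all libraries, and the sum stood at 0.353 to 4.17 CPM against 0.386 to 1.196 CPM.

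The deposited table has 1 row without a symbol whose description is glycoprotein IIIa, the classical name of integrin beta 3 (gene ENSOCUG00000005579, chromosome 19, 46700292 to 46761552). It falls outside the rule by symbol and was looked up after the member values were seen. This integrin beta 3 row stood at 10.1, 21.3 and 15.2 CPM with high cuff pressure and at 3.16, 3.80 and 3.21 CPM in the controls. No libraries overlapped, and the log2 fold change was 2.19 ± 0.36 (SE), a 4.56-fold difference with an edgeR adjusted p of 0.0247. Leaving out any 1 library other than high cuff pressure replicate 1 ended this call too, with adjusted p of 0.0505 to 0.122 and log2 fold changes of 1.90 to 2.28. Endothelium also carries this chain. Of 6 endothelial markers PECAM1 rose, and the sums overlapped, at 481 to 1065 against 243 to 701 CPM. The part of endothelium in this difference was not tested.

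Laminin-332 is the laminin under basal cells, and LAMA3 and LAMB3, its alpha and beta chains, were measured. LAMB3 (chromosome 16, 63027278 to 63067291) stood at 93.0, 108 and 177 CPM with high cuff pressure and at 73.8, 36.7 and 36.2 CPM in the controls. Its libraries did not overlap, with high cuff pressure replicate 3 highest. The log2 fold change was 1.37 ± 0.37 (SE), with a 95% interval of 0.50 to 2.23 and an edgeR adjusted p of 0.0682. DESeq2 gave LAMB3 an adjusted p of 0.0105, and edgeR without high cuff pressure replicate 1 gave 0.0368 with a log2 fold change of 1.55. Over all alternatives LAMB3's adjusted p ranged from 0.0105 to 0.238. LAMA3 stood at 36.5, 41.5 and 117 CPM against 67.1, 36.5 and 19.1 CPM. Only high cuff pressure replicate 3 stood out in LAMA3, and the log2 fold change of 0.67 (edgeR adjusted p = 0.454) was -0.06 without that library. LAMB3 made up 39.4, 21.3 and 30.8% of the summed FPKM of LAMB1 to LAMB3 with high cuff pressure and 17.6, 10.1 and 17.4% in the controls, without overlap (exact permutation p = 0.10, adjusted 0.23). The 0 calls of these 2 chains in edgeR stand beside 1 unadjusted p under 0.05 and 1 call in DESeq2, both for LAMB3.

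Among the chains of other basement membrane laminins, LAMA2 fell. LAMA2 (gene ENSOCUG00000009427, chromosome 12, 118812191 to 119513490) is the alpha chain of the laminins around muscle fibres and Schwann cells. It stood at 2.17, 6.47 and 7.43 CPM with high cuff pressure and at 30.3, 29.2 and 15.7 CPM in the controls. The highest high cuff pressure library was below the lowest control by more than the range within the high cuff pressure group. The means were 5.36 ± 2.80 and 25.1 ± 8.11 CPM (SD, n = 3 each), 4.67-fold lower with high cuff pressure. The log2 fold change was -2.22 ± 0.49 (SE), with a 95% interval of -3.36 to -1.09 and an edgeR adjusted p of 0.0472. LAMA2 missed the threshold without any 1 library other than high cuff pressure replicate 1 (adjusted p 0.0660 to 0.153, log2 fold change -2.54 to -2.06), and with the trend over gene length removed (-1.89, adjusted p = 0.0662). With high cuff pressure replicate 1 left out, LAMA2's value was -1.84 (adjusted p = 0.0237). Over all alternatives its adjusted p ranged from 0.000175 to 0.153.

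Among the laminin alpha chains LAMA2 made up 2.15, 2.31 and 2.19% of the summed FPKM of LAMA1 to LAMA4 in the high cuff pressure libraries and 10.1, 9.78 and 8.0% in the controls. The SD of this share over the 3 high cuff pressure libraries was 0.0813 percentage points. LAMA4 made up 62.2, 83.4 and 64.0% of the same sum with high cuff pressure and 67.8, 78.2 and 82.6% in the controls. For LAMA2's share the exact permutation p was 0.10, the smallest possible, and 0.23 after adjustment over the 21 quantities. LAMA4's share overlapped between the groups (exact permutation p = 0.5, adjusted 0.62). Fibroblast markers with a call were both lower, LUM and OGN (2 of 7). The Schwann cell sum was 4.73, 9.89 and 32.4 CPM with high cuff pressure and 31.4, 48.0 and 22.3 CPM in the controls, which overlapped. The part of muscle, fibroblasts and Schwann cells in the LAMA2 difference was not tested.

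The other chains did not pass the threshold and overlapped between groups. LAMA4, the alpha chain of vessel and smooth muscle basement membrane, stood at 37.4, 139 and 129.0 CPM with high cuff pressure and at 121, 139 and 96.7 CPM in the controls (log2 fold change -0.22, edgeR adjusted p = 0.776). LAMB1 stood at 28.7, 75.4 and 91.9 CPM against 106, 123 and 57.4 CPM (log2 fold change -0.55, edgeR adjusted p = 0.441). LAMB1's share of the summed FPKM of LAMB1 to LAMB3 did not overlap, at 8.84, 10.8 and 11.7% against 18.4, 24.6 and 20.1% (exact permutation p = 0.10, adjusted 0.23). LAMB2, the beta chain of vessels and muscle, stood at 168, 477 and 453 CPM against 369.8, 327 and 179 CPM. LAMC1, the gamma chain of most laminins, stood at 62.4, 117 and 198 CPM against 109, 138 and 82.2 CPM. Their log2 fold changes of 0.33 and 0.20 (edgeR adjusted p = 0.655 and 0.783) turned to -0.06 and -0.19 with total counts only. In LAMA4, LAMB1, LAMB2 and LAMC1 alike, replicate 1 of the high cuff pressure group was the lowest of all 6 libraries. LAMA1, a chain known from embryonic basement membranes, stood at 1.68, 0.942 and 4.02 CPM against 3.25, 1.54 and 0.583 CPM (log2 fold change 0.34, edgeR adjusted p = 0.788). Of the 6 other laminin chains 1 fell (16.7%, beside 5.28% of all genes tested) and none rose. Their median log2 fold change was -0.01. It ranged from -0.81 to 0.21 over the alternatives that kept all libraries, some of which tested fewer of these chains.

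**Figure D4:**
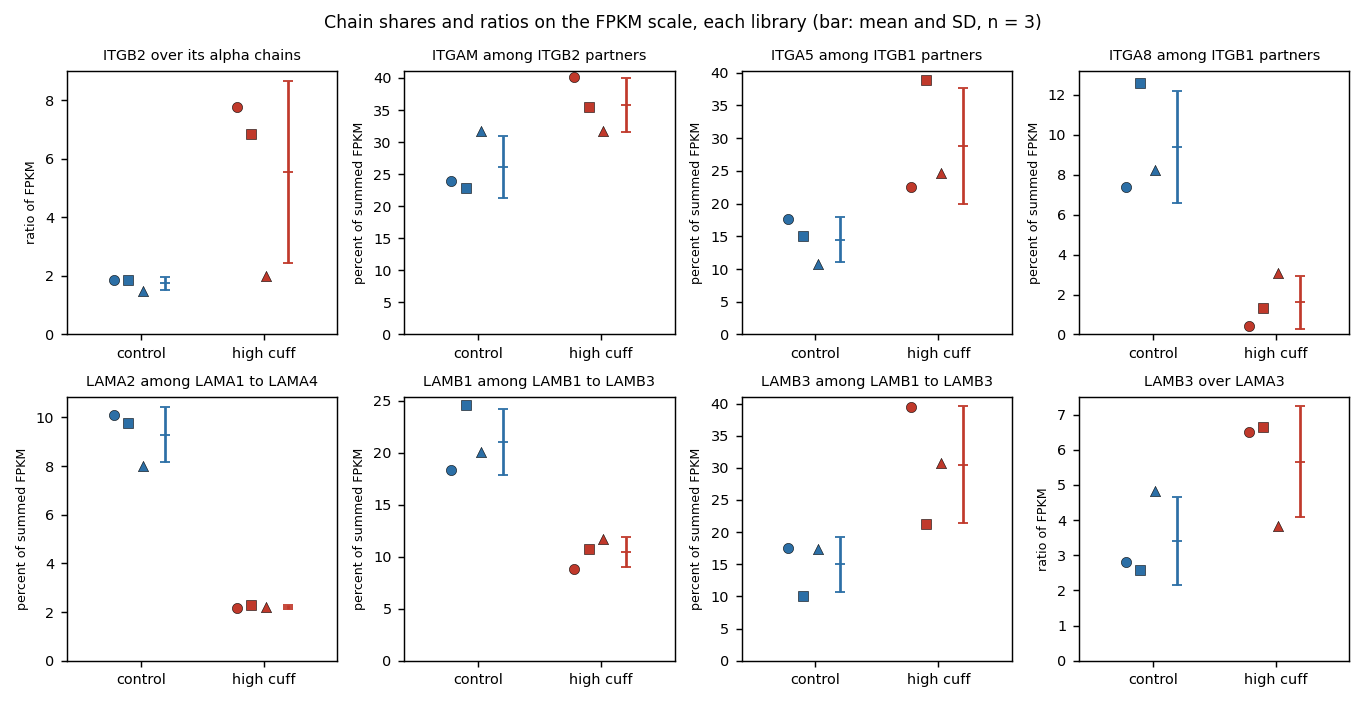
Ratios and shares of chains per length (y axes, ratio or percent of summed FPKM, from 0) in each library, with circle, square and triangle for replicates 1 to 3 and a bar for the mean and SD of 3. LAMA2's share lies between 2.15 and 2.31% in the high cuff pressure libraries and between 8.0 and 10.1% in the controls, while the LAMB3 to LAMA3 ratio overlaps.

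Per length, the members spanned a wide range in the controls. The highest mean was that of ITGB1 at 122 FPKM, followed by ITGB5 at 72.1, LAMB2 at 60.2, LAMC1 at 26.9 and LAMA4 at 23.9 FPKM. The lowest were ITGAX at 0.624, LAMA1 at 0.204 and ITGAD at 0.0229 FPKM. Of the 31 pairs of neighbours in this order, 5 had all 3 controls of the higher gene above all 3 of the lower: ITGB1 over ITGB5, LAMB2 over LAMC1, ITGAL over ITGAM, ITGAX over LAMA1 and LAMA1 over ITGAD. The other 26 pairs overlapped. In the order by mean FPKM with high cuff pressure, ITGB2 stood at place 8 and in the controls at place 18. LAMB3 stood at place 4 against 9, ITGA5 at place 7 against 12, ITGA8 at place 25 against 15 and LAMA2 at place 30 against 21.

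Of 18 integrin ligands tested, 1 rose in edgeR (5.56%, beside 5.28% of all genes). DESeq2 called 5 higher and 1 lower, beside 9.16% and 7.63% of all genes. The unadjusted p was under 0.05 for 9 of the 18, beside 29.3% of all genes tested. The gene that rose was TNC, the matrix protein tenascin C, which stood at 30.3, 53.9 and 97.6 CPM with high cuff pressure and at 6.58, 3.99 and 4.88 CPM in the controls (log2 fold change 3.56 ± 0.47 SE, edgeR adjusted p = 0.0171). All TNC libraries of the high cuff pressure group lay above the controls. Among genes picked after their values were seen, ICAM1, the endothelial and epithelial ligand of ITGB2 integrins, stood at 83.3, 114.3 and 83.6 CPM against 51.9, 20.4 and 21.4 CPM (log2 fold change 1.59, edgeR adjusted p = 0.0568). FN1, the fibronectin that ITGA5 binds, stood at 150.3, 432 and 685 CPM against 138, 171 and 114.4 CPM, with replicate 1 of the high cuff pressure group within the control range (log2 fold change 1.58, edgeR adjusted p = 0.0914). NPNT, the nephronectin that ITGA8 binds, stood at 12.4, 6.59 and 24.1 CPM against 32.1, 56.8 and 24.8 CPM, without overlap (log2 fold change -1.39, edgeR adjusted p = 0.12). Of the 18 ligands, 11 had a positive log2 fold change and 7 a negative one. ICAM2 and ICAM3 overlapped between the groups (log2 fold changes 1.15 and 0.30, edgeR adjusted p = 0.169 and 0.474). VCAM1 lay below the controls in every high cuff pressure library (log2 fold change -0.79, edgeR adjusted p = 0.165).

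Among 17 genes of integrin activation and adaptors, 1 fell (5.88%, beside 5.28% of all genes tested called in either direction). It was the only call by DESeq2 in that list, beside 16.8% of all genes with a DESeq2 adjusted p. The only unadjusted p under 0.05 in that list was also its own, beside 29.3% of all genes tested. RAP1A, a small GTPase that switches integrins on, stood at 17.6, 13.5 and 14.2 CPM with high cuff pressure and at 30.7, 29.5 and 43.3 CPM in the controls (log2 fold change -1.19 ± 0.26 SE, edgeR adjusted p = 0.0466). The related RAP1B overlapped, with a log2 fold change of -0.04 (edgeR adjusted p = 0.928). The talin TLN1 overlapped too, at 308, 391.5 and 573 CPM against 347, 414 and 285 CPM.

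None of 4 hemidesmosome and anchoring genes passed in edgeR, with 3 unadjusted p under 0.05, and DESeq2 called 1 higher and 1 lower. KRT5, the basal cell keratin, stood at 387.5, 945.0 and 2374 CPM with high cuff pressure and at 326.5, 259 and 124.5 CPM in the controls (log2 fold change 2.38, edgeR adjusted p = 0.0728). COL17A1, the transmembrane collagen of the hemidesmosome, was high in 1 library only, at 32.6, 34.7 and 275.5 CPM against 32.6, 34.6 and 16.8 CPM. DST, whose epithelial form is a plaque protein, stood at 192, 136.5 and 272 CPM against 374, 419 and 399 CPM (log2 fold change -0.99, edgeR adjusted p = 0.0793). None of 11 other basement membrane genes passed in edgeR either, with 3 unadjusted p under 0.05 and 1 lower in DESeq2. Of those 11 genes, 6 had a positive log2 fold change and 5 a negative one. COL4A6, a type IV collagen chain picked after its values were seen, stood at 9.96, 19.4 and 31.9 CPM against 72.9, 97.9 and 49.1 CPM (log2 fold change -1.84, edgeR adjusted p = 0.0545). Other type IV chains went the other way, COL4A1 at 0.97 and COL4A2 at 1.19 (edgeR adjusted p = 0.26 and 0.146), and both overlapped. Of 3 laminin receptors other than integrins, none passed in edgeR, 1 had an unadjusted p under 0.05 and DESeq2 called 1 higher. Beside the counts in these short lists, 5.28% of all genes tested were called in edgeR and 29.3% had an unadjusted p under 0.05. DESeq2 called 16.8% of all genes to which it gave an adjusted p.

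In the authors' deposited table, 5 of the 32 members had a q-value under 0.05 (ITGB2, ITGA3, ITGA5, LAMB3 and LAMA2), beside 8.89% of its 19001 rows. The authors' deposited table of KEGG pathways listed ECM-receptor interaction with 11 of its 51 genes changed, 8 higher and 3 lower, and a q-value of 0.040. Its changed genes included ITGA5, LAMB3 and LAMA2. In that authors' deposited table focal adhesion had a q-value of 0.612 and leukocyte transendothelial migration, which held ITGB2, 0.469.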

How the data were processed

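Tracheal mucosa gave polyA libraries from 50 ng of total RNA each, which were read on a DNBSEQ-T7 sequencer, per the labels. The deposited gene table holds raw counts per gene and FPKM by the authors. The authors' comparison table gives p-values and q-values, and their pathway table the rich factor, a ratio of shares. The tools in the submitters' processing notes are HISAT2 (version 2.0.4), StringTie (version 1.3.3b) and edgeR. Build, annotation, strandedness and the way reads were assigned are not given in the sources used, so coordinates are those of the deposited table without a build. Samples were grouped by library name, and the third control has the title S4.

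The raw counts were tested with edgeR 4.0.16 in R 4.3.3 (filterByExpr, TMM, robust glmQLFit, glmQLFTest) on all 6 libraries, with Benjamini-Hochberg adjustment over 13724 genes. Of the 29587 genes, 13436 carry no symbol. Each standard error is the fold change (log2) over the root of the F statistic. Chain shares were computed from FPKM and compared with a two-sided exact permutation test, whose smallest p is 0.10. Alternatives used DESeq2 1.42.0, limma 3.58.1, other scalings, no filter, a replicate block, each library left out and, added after the data were seen, removal of the trend over gene length. Total counts were 10501734 to 14415754, so 3 counts correspond to 0.208 to 0.286 CPM. In counts simulated from these libraries for 13724 genes, 125 of 200 genes changed 4-fold were called, and 11 unchanged genes. Every member is named. The members, lists and tests were chosen with earlier results of these data known. No sequences are shown.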

Additional observations from a re-analysis of the deposited data

How the results depend on the processing

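The 2 members called higher were 5 with DESeq2, 1 with limma on log2(FPKM + 0.1) and on log2(FPKM + 1), 1 with the replicate block, 1 with total counts only and 0 to 5 with 1 library left out. The 5 came without high cuff pressure replicate 1; none was called without any 1 control or high cuff pressure replicate 2, with 5 to 7 unadjusted p under 0.05. The 1 member called lower was 0 with the length trend removed, 0 with the replicate block, 2 with limma on log2(FPKM + 1) and 0 to 1 with 1 library left out (1 without high cuff pressure replicate 1), each 0 with 1 to 4 unadjusted p under 0.05. Calls over all genes moved likewise: 725 in the full data, 2548 with DESeq2, 244 with the block, 2623 without high cuff pressure replicate 1, 302 without replicate 3 and 4 without replicate 2, and 76, 0 and 0 without control 1, 2 or 3, the last 2 with 2691 and 2496 unadjusted p under 0.05. ITGB2 was the only call of the 3 kept with the block (adjusted p = 0.0149, edgeR); ITGA3 had 0.122 and LAMA2 0.0844, and the integrin beta 3 row 0.0529. Same-numbered libraries did not deviate together (correlations -0.277 to -0.201, and 0 libraries correlated best with their own number), so the numbers were not taken as pairs.

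Of 271 log2 fold changes with all libraries, 237 kept direction and side of the threshold, 6 lost and 4 gained a call, and 24 turned direction, in 9 genes; of 186 with 1 library left out these numbers were 152, 14, 3 and 17. No called gene turned. With total counts only, limma on log2(FPKM + 0.1) and limma on log2(FPKM + 1), in that order, the values were -0.0135, -0.023 and -0.0152 for ITGB7, -0.266, -0.383 and -0.226 for ITGA2, -0.247, -0.668 and -0.546 for ITGA7, -0.262, -0.294 and -0.292 for ITGB1, -0.0626, -0.145 and -0.141 for LAMB2 and -0.191, -0.318 and -0.301 for LAMC1. ITGA7 was also -0.284 with limma-voom and -0.184 with the replicate block. ITGA11 was 0.0147 with limma-voom. With the length trend removed, ITGA11 was 0.192, ITGB5 0.00182 and LAMA4 0.0349. With 1 library left out, ITGA2 ranged from -0.191 to 0.457, ITGA10 from -0.734 to 0.331, ITGA11 from -0.14 to 0.143, ITGA7 from -0.229 to 0.668, ITGB1 from -0.0961 to 0.301, ITGB5 from -0.385 to 0.195, LAMA3 from -0.0644 to 1.24, LAMA1 from -0.425 to 1.08, LAMA4 from -0.506 to 0.181 and LAMC1 from -0.292 to 0.525. TMM factors were 0.81 to 0.917 with high cuff pressure and 1.03 to 1.21 in the controls. Over all genes the median log2 fold change was 0.25 for the shortest class of gene models and -0.20 for the longest class; the members' median length was 4245 bp against 2137 bp. The causes of these changes were not tested. In simulated counts, where 200 of 13724 genes were changed 4-fold, 62.5% of the changed genes were called. In the data 29.3% of genes had an unadjusted p under 0.05 in edgeR, so 62.5% need not be the share found in this comparison. A missed threshold does not show that a gene did not differ.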
